A study of Homo sapiens with 4 samples.

Results

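Chromosome ends held far more called ATAC-seq peaks than their share of the genome in every OVSAHO library. The peaks described here are those of the deposited peak lists that start within 3 Mb of the end of a chromosome arm. Chromosomes 1 to 22 were used at hg19 lengths, with only the long-arm end taken for chromosomes 13, 14, 15, 21 and 22. That gave 39 ends, 17 short-arm (p) and 22 long-arm (q), which cover 117 Mb or 4.06% of these chromosomes. They held 7483 of the 78744 peaks in the 8 lists, made up of 2611 of 23813 narrow peaks and 4872 of 54931 broad peaks. The rest of chromosomes 1 to 22 held 69120 peaks and served as the comparison.

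OVSAHO is an established human ovarian cancer cell line. ATAC-seq cuts accessible DNA with a transposase, so that fragments pile up where chromatin is open. The test cells are labelled as SMARCA2 stable with SMARCA4 knockdown, and the control cells as WT. Both groups had been treated with 25 µM of carboplatin, which crosslinks DNA, for 2 days, and no library without the drug was analysed here. Each group had 2 libraries, called here test 1, test 2, control 1 and control 2. SMARCA2 and SMARCA4 are alternative ATPases of the SWI/SNF complexes, which move nucleosomes. Their levels were not measured in these files, so neither genotype could be checked. The labels do not say whether 2 libraries of a group came from separate cultures, so the spread between them may be technical.

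The stretch next to a telomere, the subtelomere, is built differently from the rest of the arm. Many human subtelomeres are rich in genes and in G and C bases. Close to the telomere they carry duplicated segments shared between chromosomes and then the telomere repeat itself. Short reads from such copies cannot be assigned to 1 chromosome end with certainty. The ends of 4q and 10q carry the macrosatellite D4Z4, a large unit repeated in tandem.

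Narrow peaks had been called from short fragments, those free of nucleosomes, and broad peaks from fragments of every length, library by library. The narrow lists rested on 6146272, 6885374, 15828837 and 7531794 fragments in test 1, test 2, control 1 and control 2. The broad lists rested on 22432549, 23596152, 31515662 and 25452784 fragments. Control 1 stands apart: it had the most fragments in both sets, the shortest mean fragments (62 bp in the narrow set and 131 bp in the broad set) and the longest lists. Every peak carries the authors' pileup (stacked fragments), fold enrichment over a local background, and −log10 q. The local background was recovered as (pileup + 1) / fold enrichment − 1, in fragments. Its lowest value in each list lay close to the level expected from even coverage, for example 0.155 recovered and 0.155 expected in the narrow list of test 1 and 0.369 and 0.363 in that of control 1.

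Peaks were denser at the ends than elsewhere on the same chromosomes in all 4 libraries and in both peak types. Narrow peaks at ends numbered 337 in test 1 and 470 in test 2, against 1332 in control 1 and 472 in control 2. Per Mb, that is 2.88, 4.02, 11.4 and 4.03 narrow peaks at the ends of test 1, test 2, control 1 and control 2, against 1.08, 1.30, 3.21 and 1.75 in the rest of the chromosomes. The ends took 10.2% (exact 95% interval 9.17 to 11.3) of the narrow peaks of test 1 and 11.5% (10.6 to 12.6) of those of test 2. In control 1 they took 13.04% (12.4 to 13.7) and in control 2 8.88% (8.13 to 9.68). These intervals cover counting error only. Ends exceeded the rest by a log2 ratio of 1.52 ± 0.27 (SD, n = 4 libraries), with the ratio above 0 in 4 of 4 libraries. The exact two-sided sign-flip permutation test over libraries gave p = 0.13, the smallest that 4 libraries allow, and 0.13 after Benjamini-Hochberg adjustment over 6 tests. Without control 1 the log2 ratio was 1.42. These densities use full chromosome lengths, with stretches of unknown bases included. Counting only the length of 1 Mb windows with a narrow peak in any library, the log2 ratio over 4 libraries was 1.25.

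Broad peaks followed with a smaller excess. They numbered 681 and 1202 at the ends of test 1 and test 2, against 1997 and 992 in control 1 and control 2. Their density at the ends was 5.82, 10.3, 17.1 and 8.48 per Mb in test 1, test 2, control 1 and control 2, against 2.88, 4.52, 5.89 and 4.36 per Mb in the rest. The log2 ratio was 1.17 ± 0.26 (SD, n = 4), above 0 in 4 of 4 libraries (exact sign-flip permutation p = 0.13, adjusted p = 0.13), and 1.05 without control 1. Counting only the length of 1 Mb windows with a broad peak in any library, it was 1.03 over 4 libraries. Control 1 had the highest ratio of ends to rest in both peak types, at 3.54 for narrow and 2.90 for broad peaks. Control 2 had the lowest, at 2.30 and 1.94, so that both test libraries lay between the control libraries.

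Taken in steps of 1 Mb, density was highest in the outermost Mb and lower in the next 2. In the outermost Mb, narrow peaks stood at 4.44 and 6.05 per Mb in test 1 and test 2, against 14.1 and 5.72 per Mb in control 1 and control 2. Between 2 and 3 Mb from the end the same libraries had 1.51, 2.44, 8.85 and 2.49 narrow peaks per Mb. From 5 to 6 Mb they had 1, 1.87, 5.64 and 1.77. By that point narrow density in test 1 was just below its level of 1.08 in the rest, while control 1 was still above its level of 3.21. Broad peaks ran from 7.77, 13.7, 20.6 and 11 per Mb in the outermost Mb of test 1, test 2, control 1 and control 2 down to 4.26, 7.77, 12.9 and 6.31 per Mb between 2 and 3 Mb.

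**Figure D1:**
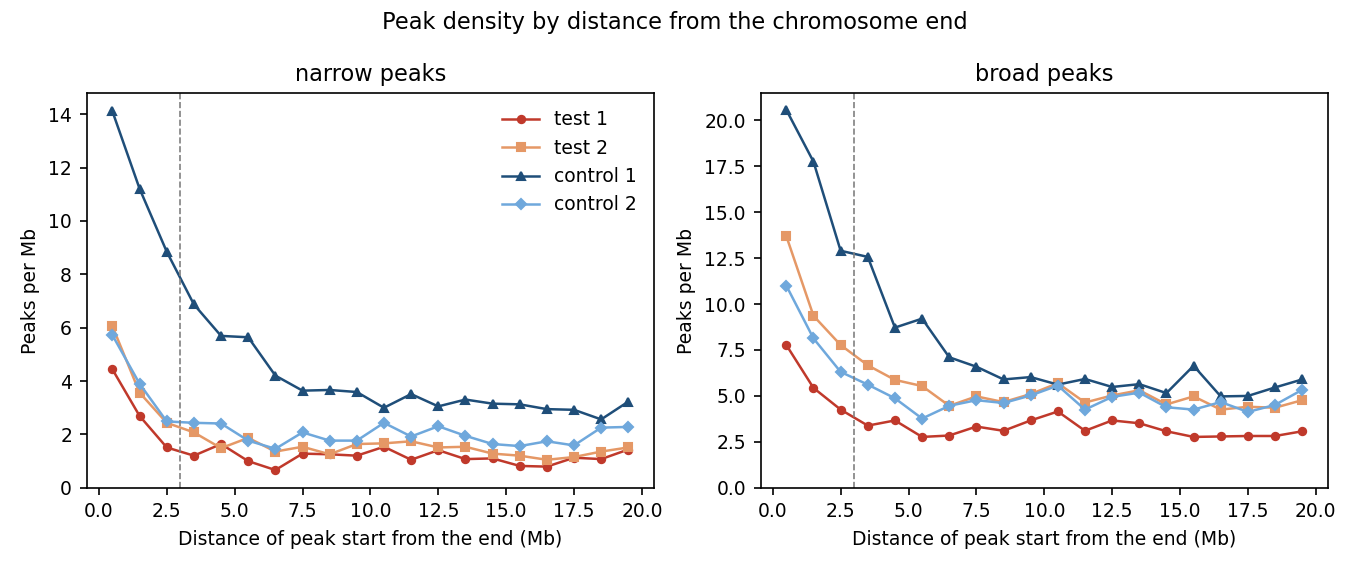
Peaks per Mb (vertical axis) in 1 Mb steps of distance from the nearest counted end (horizontal axis, Mb), for narrow and broad peaks, with 1 line per library and a dashed line at 3 Mb. Density is highest in the outermost Mb in every library, and control 1 lies above the other 3 libraries over the outer Mb, at 14.1 narrow peaks per Mb against 4.44 to 6.05.

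Short-arm ends were less dense than long-arm ends in every library. Narrow peaks stood at 2.55, 3.49, 8.88 and 3.71 per Mb on p ends in test 1, test 2, control 1 and control 2, and at 3.14, 4.42, 13.3 and 4.29 per Mb on q ends. Broad peaks stood at 4.92, 8.20, 13.1 and 6.86 per Mb on p ends and at 6.52, 11.9, 20.2 and 9.73 per Mb on q ends. The 2 sets of ends lie on partly different chromosomes, and this difference was not tested.

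Fold enrichment, unlike density, hardly separated ends from the rest. Median fold enrichment of narrow peaks was 6.12, 5.92, 5.13 and 6.04 at the ends of test 1, test 2, control 1 and control 2, against 5.94, 5.63, 5.11 and 5.77 in the rest. The log2 ratio of ends to rest was 0.047 ± 0.030 (SD, n = 4), above 0 in 4 of 4 libraries (exact sign-flip permutation p = 0.13, adjusted p = 0.13). For broad peaks the medians were 3.89, 3.45, 3.43 and 3.61 at the ends of the same libraries and 4.05, 3.63, 3.55 and 3.71 in the rest. That log2 ratio was -0.055 ± 0.014 (SD, n = 4), below 0 in 4 of 4 libraries (exact sign-flip permutation p = 0.13, adjusted p = 0.13). Against the rest of the chromosomes, narrow peaks at ends were therefore slightly more enriched and broad peaks slightly less, both by amounts far below the difference in density.

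The local background under the peaks was higher at ends. Median recovered background of narrow peaks was 0.474, 0.501, 0.965 and 0.494 fragments at the ends of test 1, test 2, control 1 and control 2, against 0.354, 0.342, 0.589 and 0.375 in the rest. The log2 ratio was 0.52 ± 0.15 (SD, n = 4), above 0 in 4 of 4 libraries, and 0.46 without control 1 (exact sign-flip permutation p = 0.13, adjusted p = 0.13, for all 4 libraries). Median background of broad peaks was 3.11, 3.44, 3.19 and 3.45 fragments at the ends of the same libraries and 2.40, 2.27, 2.09 and 2.58 in the rest. That log2 ratio was 0.50 ± 0.12 (SD, n = 4), above 0 in 4 of 4 libraries (exact sign-flip permutation p = 0.13, adjusted p = 0.13). The pileup was higher too: the median narrow peak stacked 9, 8, 10 and 9 fragments at the ends of test 1, test 2, control 1 and control 2, against 7, 7, 8 and 7 in the rest. A background measured only under called peaks says nothing about stretches without a peak.

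**Figure D2:**
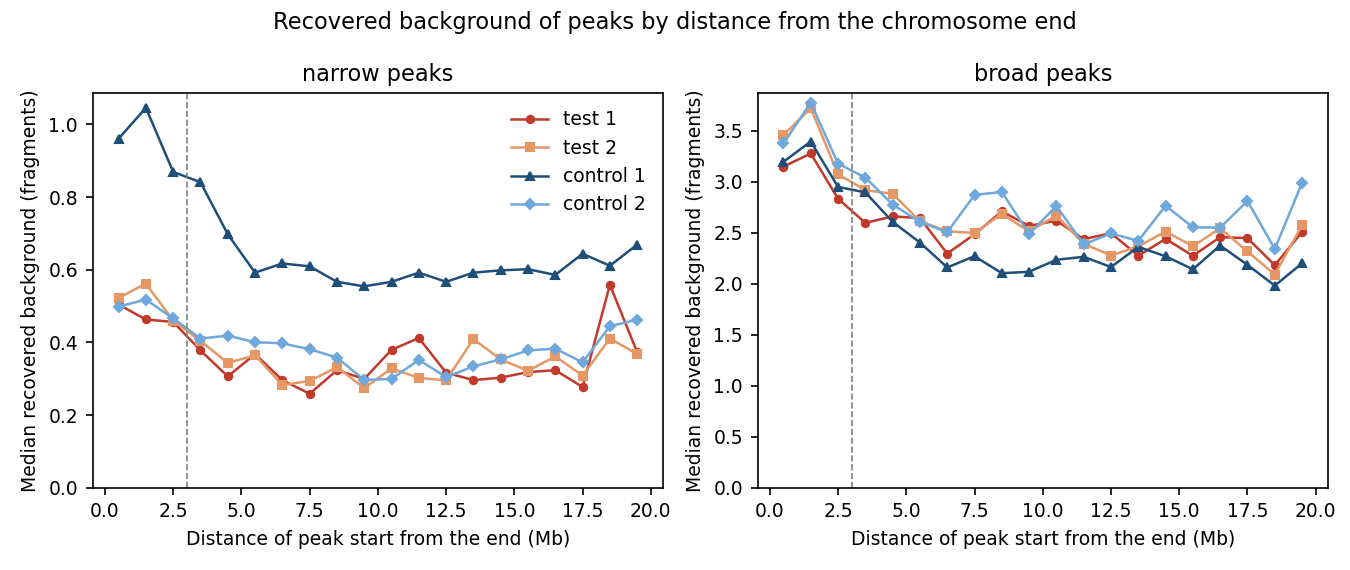
Median recovered background of peaks in fragments (vertical axis) in 1 Mb steps of distance from the nearest counted end (horizontal axis, Mb), for narrow and broad peaks, with 1 line per library and a dashed line at 3 Mb. The medians are highest in the outer 2 Mb in all libraries for broad peaks, and for narrow peaks in all but test 1, whose highest step is 18 to 19 Mb.

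Fewer peaks at ends than elsewhere sat on the lowest background the caller allows. Within 1% of the lowest value of the list lay 1.78, 2.34, 3.08 and 2.54% of the narrow peaks at the ends of test 1, test 2, control 1 and control 2, against 3.97, 5.94, 10.04 and 7.103% in the rest. For broad peaks these shares were 5.14, 4.99, 6.66 and 8.27% at ends and 13.4, 18.1, 18.7 and 20.2% in the rest. Strong peaks were also a larger share at ends. At the ends of test 1, test 2, control 1 and control 2, 49.0, 46.2, 33.6 and 49.6% of narrow peaks had a −log10 q of 5 or higher. Over the whole of chromosomes 1 to 22 the shares were 45.1, 38.9, 25.3 and 41.5%. The broad peaks at ends passed the same threshold in 35.5, 16.7, 11.7 and 28.1% of cases, against 31.9, 14.1, 5.2 and 25.2% over all of these chromosomes. As a ratio, the widest gap was in the broad list of control 1, where peaks at ends also had a median width of 316 bp against 255 bp in the rest. In test 1, test 2 and control 2 the median widths of broad peaks were 357, 360 and 374.5 bp at ends, against 349, 334 and 361 bp in the rest.

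Narrow and broad calls coincided more at ends in control 1. There 62.5% of narrow peaks at ends (exact 95% interval 59.9 to 65.1) coincided with a broad peak, as did 39.7% in the rest (38.7 to 40.7). The other 3 libraries had 71.8% in test 1, 63.8% in test 2 and 68.4% in control 2 at ends, against 71.1, 60.4 and 67.0% in the rest.

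The 39 ends differed widely among themselves. Of these, 28 had more narrow peaks per Mb than the rest of their own chromosome in all 4 libraries, and 6 did so in none; for broad peaks the counts were 28 and 5. By mean over libraries, the short-arm end of chromosome 1 was the densest, with 35 and 34 narrow peaks in test 1 and test 2, against 74 and 42 in control 1 and control 2. That is a mean of 15.4 ± 6.3 per Mb (SD, n = 4 libraries). In test 1, test 2, control 1 and control 2 it was 7.20, 6.32, 4.56 and 4.78 times as dense as the rest of chromosome 1. Next in mean density came 7q, 17q, 13q and 20q, an order in which control 1 weighs most. It had by far the most peaks there: 7q had 13 and 23 narrow peaks in test 1 and test 2, against 86 and 21 in control 1 and control 2, and 13q had 14 and 18, against 86 and 16. The SD over libraries at 7q (11.3 per Mb around a mean of 11.9) and 13q (11.7 around 11.2) exceeds the gaps between these 4 neighbours, which are therefore not ordered. Outside control 1 they did not stand above all other ends: 1q had 15 and 21 narrow peaks in test 1 and test 2, against 22 in control 2, and 8q had 15 and 19, against 22. In control 1, 7q and 13q with 86 peaks each exceeded 1p with 74. The 1q and 8q ends were chosen after their values were seen.

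The emptiest ends were 3p, 11q, 9p, 15q and 12p. The 3 Mb at 3p held no narrow peak in any library, and 0 and 1 broad peaks in test 1 and test 2, against 4 and 1 in control 1 and control 2. The 11q end held 0 and 1 narrow peaks in the test libraries, against none in either control library. At 9p there were 0 and 2 narrow peaks in test 1 and test 2, against 1 in each control library. These 3 ends lay below the rest of their own chromosome in all 4 libraries in both peak types. At 12p the counts were 3, 4, 5 and 4 in test 1, test 2, control 1 and control 2. At 15q both test libraries had 1 narrow peak, against 4 and 7 in control 1 and control 2. A lack of accessible sites and a lack of uniquely placed reads cannot be told apart here.

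Some ends separated control 1 from the other libraries more than others. At 10p test 1 and test 2 had 3 and 10 narrow peaks, against 54 and 10 in control 1 and control 2. Its broad peaks numbered 4 and 27 in the test libraries, against 106 and 18 in the control libraries. At 19q the order was turned round for broad peaks: test 1 and test 2 had 28 and 21, against none in control 1 and 27 in control 2. Narrow peaks at 19q did not share this order, with 9 and 4 in the test libraries, against 5 and 5 in the control libraries. The ranking of ends by density was shared unevenly between libraries. Across the 39 ends, Spearman's rho for narrow density was 0.859 between test 1 and test 2, 0.711 between control 1 and control 2, and 0.721 to 0.847 for the pairs across groups. For broad density the lowest rho was 0.361, between test 1 and control 1, and the highest 0.883, between test 1 and control 2. The ends share each library's depth and each chromosome's base composition, so these values are descriptions without a test.

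**Figure D3:**
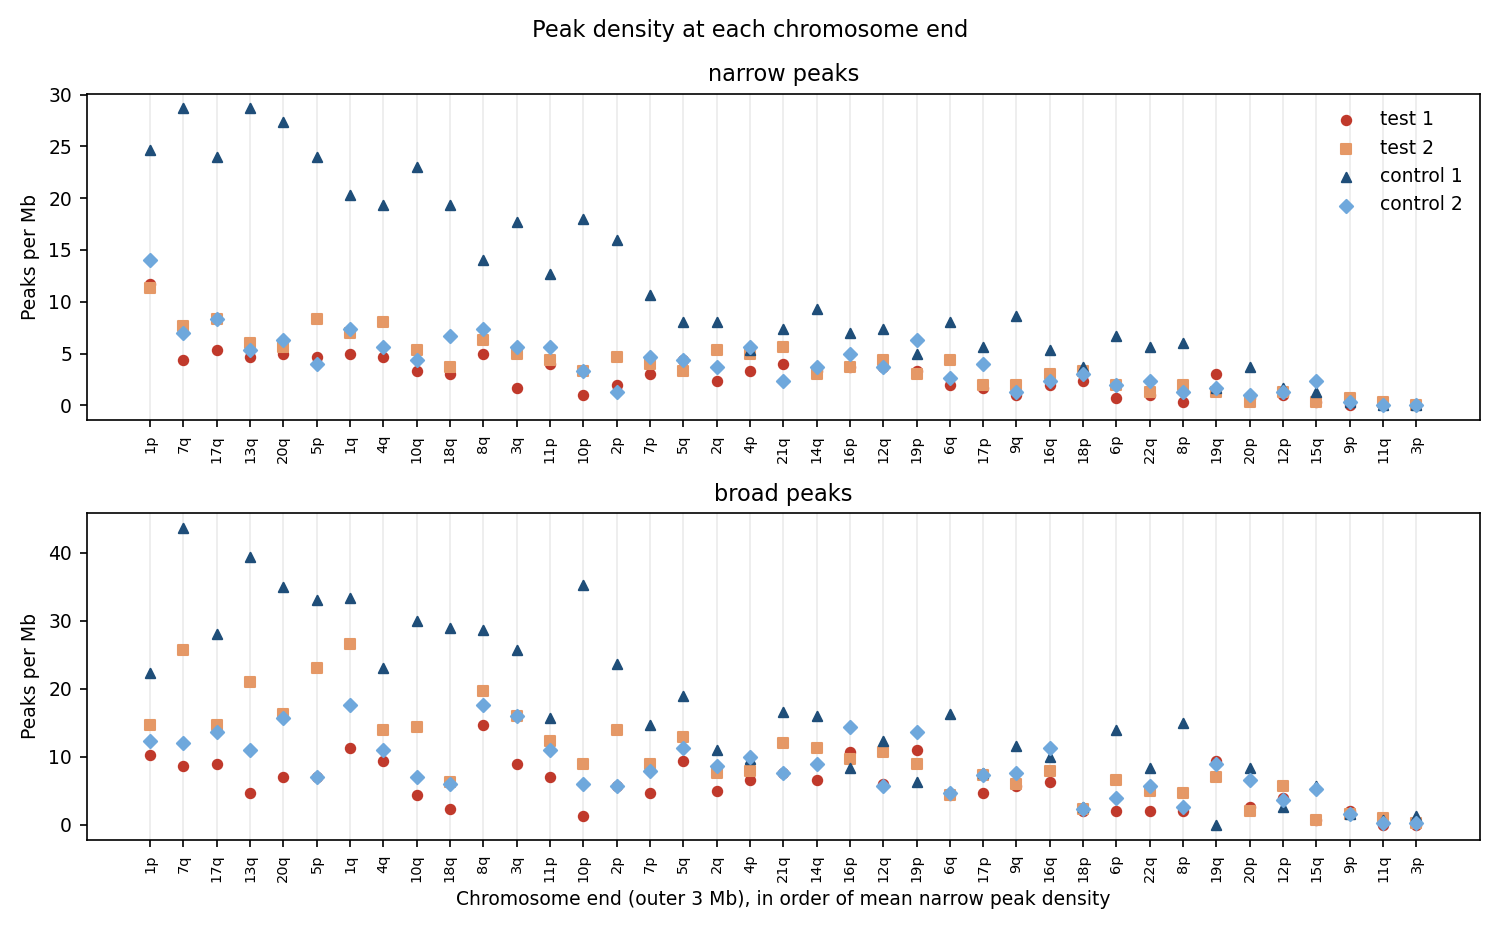
Peaks per Mb (vertical axis) at each of the 39 ends (horizontal axis, in order of mean narrow density), with 1 mark per library, for narrow peaks above and broad peaks below. Control 1 stands highest at most of the dense ends, and 3p has 0 narrow peaks in all 4 libraries.

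Ends with more peaks also tended to have peaks on a higher background. Spearman's rho between density and median background across ends was 0.538, 0.6005, 0.707 and 0.542 for narrow peaks in test 1, test 2, control 1 and control 2, over the 36, 38, 37 and 37 ends that held a peak. For broad peaks it was 0.6004, 0.776, 0.786 and 0.748, over 37, 39, 38 and 39 ends. Density and background at an end come from the same library and the same reads. Relative to the rest of each library, the ends with the highest median background over narrow peaks were 18p (71.1 times, median over libraries), 1p (11.1), 20q (2.43), 14q (2.39) and 5p (2.23). The lowest were 11q (0.490, from 1 peak), 20p (0.626), 9p (0.627), 19q (0.683) and 8p (0.758).

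Each of the 2 leading ends held a short stretch of very high background. At 18p the high values came from chr18:107404-111414, which held 6 and 8 narrow peaks in test 1 and test 2, against 9 and 8 in control 1 and control 2. Their median background was 22.9 and 26.8 fragments in the test libraries, against 45.8 and 22.4 in the control libraries. Those peaks made up most of the 7, 10, 11 and 9 narrow peaks of the whole 18p end. At 1p the stretch chr1:564478-570279 held 12 and 11 narrow peaks in test 1 and test 2, against 12 and 11 in control 1 and control 2. Their median background was 73.3 and 66.2 fragments in the test libraries, against 30.3 and 106 in the control libraries. This stretch of hg19 is known to hold a nuclear copy of part of the mitochondrial genome, so that reads from mitochondrial DNA can be placed there. Whether mitochondrial reads take part in these peaks was not tested. Median fold enrichment at the 1p stretch was 3.87, 3.75, 3.82 and 3.85 in test 1, test 2, control 1 and control 2. At the 18p stretch it was 4.78, 3.35, 3.34 and 3.25, so both places lay below the medians of the ends as a whole.

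In 5 of 6 comparisons between test and control cells at chromosome ends the libraries of the groups overlapped. With 2 libraries against 2 the exact test cannot go below 0.33, so none of the 6 could pass a threshold. The density ratio of ends to rest for narrow peaks averaged 2.88 ± 0.28 in test and 2.92 ± 0.88 in control libraries (SD, n = 2 each). On the log2 scale, test minus control was 0.0080 (exact two-sided permutation p = 1, adjusted p = 1 over 6 tests). For broad peaks the density ratio averaged 2.14 ± 0.18 in test and 2.42 ± 0.67 in control libraries, with a log2 difference of -0.15 (exact permutation p = 1, adjusted p = 1).

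The groups also overlapped in background and in narrow fold enrichment, but not in broad fold enrichment. The narrow background ratio averaged 1.40 ± 0.092 in test and 1.48 ± 0.23 in control libraries (log2 difference -0.070, exact permutation p = 1). The broad background ratio averaged 1.41 ± 0.15 in test and 1.43 ± 0.14 in control libraries (log2 difference -0.027, exact permutation p = 0.67). For narrow peaks the fold ratio averaged 1.04 ± 0.014 in test and 1.03 ± 0.030 in control libraries (log2 difference 0.023, exact permutation p = 0.67). For broad peaks it averaged 0.955 ± 0.0066 in test and 0.970 ± 0.0053 in control libraries, a difference larger than the SD of either group. This was the only measure in which both test libraries lay on the same side of both control libraries (log2 difference -0.022, exact permutation p = 0.33, the smallest possible, adjusted p = 1). The spread between control 1 and control 2 exceeded the distance between the groups in every measure but broad fold enrichment. Without control 1, test minus control was 0.32 for narrow density, -0.0071 for the narrow fold ratio, 0.088 for the narrow background ratio, 0.14 for broad density and 0.071 for the broad background ratio. For the broad fold ratio it was -0.027.

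To follow single places across libraries, overlapping peaks of the 4 lists were merged into regions, separately for each type. The ends held 1858 of 17258 narrow regions and 3147 of 36146 broad regions. Of the narrow regions at ends, 97 were called in all 4 libraries, or 5.22% (exact 95% interval 4.25 to 6.33), against 3.78% of all narrow regions of chromosomes 1 to 22. Of the broad regions at ends 160 were called in all 4 libraries, or 5.08% (4.34 to 5.91), against 3.02% of all broad regions. Most regions at ends came from 1 library: 77.5% of narrow and 67.6% of broad ones, against 80.8% and 70.5% over all regions. Control 1 alone accounted for 1040 narrow regions at ends (56.0%, against 50.2% of all) and 1388 broad ones (44.1%, against 38.2% of all). Without control 1, the 3 remaining libraries shared 155 narrow regions at ends (18.8%, against 15.3% of all) and 404 broad ones (22.9%, against 21.6% of all). With all lists held to the length of the shortest, all 4 libraries shared 93 narrow regions at ends (9.73%, against 7.22% of all) and 135 broad ones (6.52%, against 3.65% of all).

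Some shared narrow regions lay close together. Of the 97 at ends called in all 4 libraries, 47 (48.5%) lay in 7 windows of 1 Mb chosen for holding 5 or more such regions each. In the rest of the chromosomes 345 of 556 (62.1%) lay in windows of that kind, so such crowding was no more common at ends. The window chr1:1-1000000 held 11. The windows chr1:2000001-3000000, chr4:190000001-191000000 and chr18:1-1000000 held 7 each. Those at chr10:135000001-136000000, chr11:1000001-2000000 and chr18:77000001-78000000 held 5 each. The chr4 and chr10 windows lie at 4q and 10q, the arms that carry D4Z4. With every dense window of chromosomes 1 to 22 left out, 50 of 1627 narrow regions at ends (3.07%) were called in all 4 libraries, against 211 of 14427 (1.46%) in the rest. The windows were chosen by the same calls, so these shares carry no test.

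Measured in bases under peaks, pairs of libraries overlapped more at ends than elsewhere. The Jaccard index is used here as the share of bases under a peak of either library that lie under peaks of both. It was higher at ends in 6 of 6 pairs for narrow and for broad peaks. For narrow peaks of test 1 and test 2 it was 0.311 at ends against 0.265 in the rest. For those of control 1 and control 2 it was 0.135 at ends against 0.0838 in the rest. The highest narrow value crossed the groups, with 0.322 for test 1 and control 2 at ends, and so did the highest broad value, 0.414 for the same pair. The ratio of ends to rest ran over 1.18 to 1.61 for narrow and 1.06 to 1.86 for broad peaks. Counted in peaks, overlap was not higher at ends in every case. Of the narrow peaks of test 2, 45.7% overlapped one of control 2 at ends, against 46.8% in the rest. Of those of control 2, 45.3% overlapped one of test 2 at ends, against 34.8% in the rest. The higher density of peaks at ends was not allowed for in either measure. Pairs share libraries, so no test was made.

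**Figure D4:**
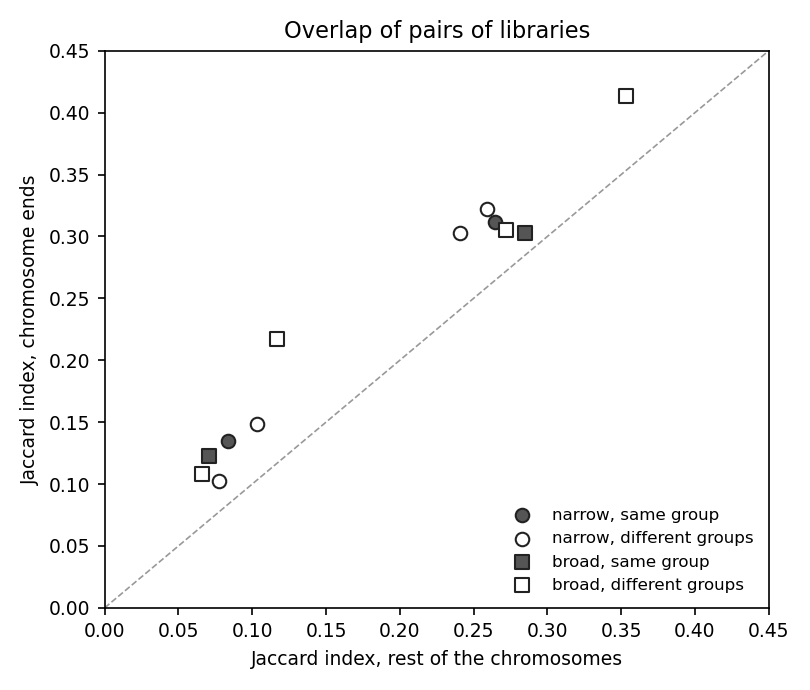
Jaccard index of each pair of libraries at chromosome ends (vertical axis) against the rest of the chromosomes (horizontal axis), for narrow (circles) and broad (squares) peaks, with filled marks for pairs of the same group and open marks for pairs across groups. All 12 marks lie above the dashed line of equal values, and the 6 marks at low overlap are the pairs with control 1.

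Regions called in 1 group only were few. Both test libraries and neither control library called 20 narrow regions at ends (1.08% of them, against 1.23% of all narrow regions) and 23 broad regions (0.731%, against 1.01%). Both control libraries and neither test library called 48 narrow regions at ends (2.58%, against 1.24% of all) and 39 broad regions (1.24%, against 1.25% of all). Narrow control-only regions were thus a larger share at ends than over all regions, while the shares of test-only regions and of broad control-only regions were at or below the background. Every narrow control-only region needs a call in control 1, whose list is the longest. At equal list lengths, narrow regions at ends numbered 30 test-only (3.14%, against 3.23% of all) and 30 control-only (3.14%, against 1.61% of all). The excess of control-only over test-only narrow regions at ends was thus gone, while the control-only share was still above that of all regions. Broad regions at ends then numbered 27 test-only (1.30%, against 2.1% of all) and 13 control-only (0.628%, against 0.515% of all), the reverse order of the full lists. Without control 1, test 1 and test 2 shared 32 narrow regions at ends that control 2 did not call (3.88%, against 3.11% of all). Control 2 then had 216 that neither test library called (26.2%, against 33.2% of all). For broad regions at ends these counts were 57 (3.23%, against 2.47% of all) and 347 (19.7%, against 24.4% of all).

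Of the 20 test-only narrow regions at ends, 14 (70%) overlapped a broad peak of control 2 and 1 overlapped a broad peak of control 1. In the rest, 161 of 193 (83.4%) overlapped a broad peak of control 2. They lay on 12 ends, with 5 at 21q. Ranked by the lower of the percentiles of fold enrichment in the 2 test lists, chr5:271463-271751 led, with fold enrichments of 7.78 in test 1 and 7.35 in test 2. The region chr16:87984615-87984698 followed with 6.92 and 6.37. The next was chr16:1393268-1393358, with 9.04 and 5.70. All 3 had a broad peak in both test libraries and in control 2 but not in control 1. The leading test-only narrow region with a broad peak in neither control library was chr17:79075623-79075765, with fold enrichments of 6.35 in test 1 and 5.66 in test 2 on pileups of 9 and 10 fragments. At such pileups, a few fragments decide whether a peak is called.

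Control-only narrow regions lay on 20 ends, with 6 each at 1p, 7q and 18q. Broad peaks of at least 1 test library lay over 26 of the 48 (54.2%), and over 80 of 166 (48.2%) in the rest. The leading region, chr3:197895780-197895926, had fold enrichments of 11.3 in control 1 and 12.2 in control 2, and a broad peak in all 4 libraries. Of the 4 regions ranked next, 3 were close neighbours at 18q, chr18:77378608-77378730, chr18:77379310-77379522 and chr18:77379913-77380030. Their fold enrichments were 10.4, 8.83 and 7.43 in control 1, and 7.95, 10.9 and 7.43 in control 2. They had broad peaks in both control libraries and in neither test library. These 3 regions lie in a dense window, where the test libraries called other narrow peaks.

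The broad lists gave 2 leading control-only regions close to chromosome ends. At chr15:102521090-102521390 the fold enrichment was 4.69 in control 1 and 6.39 in control 2. At chr10:135523489-135524742 it was 6.59 in control 1 and 5.85 in control 2. Both places held a narrow peak in all 4 libraries, so the absence of a broad call in the test libraries is not absence of signal. The leading broad test-only region was chr12:1058615-1059089, with fold enrichments of 5.36 in test 1 and 4.33 in test 2, and no narrow peak in any library. Chr16:2961724-2961975 followed with 5.17 in test 1 and 5.395 in test 2.

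The strongest region called in all 4 libraries was chr3:196625627-196625771 on 3q, 1397 kb from the end. Its fold enrichment was 61.1 in test 1 and 54.8 in test 2, against 86.4 in control 1 and 66.9 in control 2. Pileups there were 144 and 119 fragments in the test libraries, against 382 and 167 in the control libraries. It is 145 bp wide, and only control 1 had a broad peak over it. In control 1 it was the top peak of the whole narrow list, at the 100th percentile of fold enrichment. Each control value exceeded each test value. Recovered background there was 1.37 and 1.19 fragments in the test libraries, against 3.43 and 1.51 in the control libraries. Fold enrichment carries an added 1 on pileup and on background, which lowers it most where background is low. This order is not corrected for depth and was not tested.

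The other leading shared regions had lower values with mixed order between groups. At chr5:178012496-178012735 on 5q the fold enrichment was 17.4 and 22.4 in test 1 and test 2, against 28.9 and 15.95 in control 1 and control 2. At chr20:62719949-62720268 on 20q it was 14.8 and 16.8 in the test libraries, against 18.5 and 13.7 in the control libraries. At chr12:132061348-132061847 on 12q it was 13.9 and 18.2 in the test libraries, against 19.4 and 18.975 in the control libraries. Both control values again exceeded both test values there, and also at chr8:145180526-145180957 on 8q. At that 8q region the fold enrichment was 12.7 and 12.7 in the test libraries, against 18.5 and 14.9 in the control libraries. At chr12:95431-95534 on 12p it was 31.3 and 21.2 in the test libraries, against 10.7 and 19.1 in the control libraries, the reverse order. At chr7:157944065-157944179 on 7q the values were 12.4 and 12.4 in the test libraries, against 13.8 and 11.9 in the control libraries, with no broad peak in any library. None of these single differences was tested, since 1 value per library and 2 libraries a group cannot pass a threshold.

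The limit of 3 Mb falls within a gradient and marks no break. The shared narrow regions nearest to it among those at ends were chr5:178012496-178012735, 2903 kb from the end, and chr1:2629083-2629316, 2629 kb from it. The chr1 region had fold enrichments of 9.38 and 8.43 in test 1 and test 2, against 8.32 and 9.24 in control 1 and control 2. Just beyond the limit, chr20:59858410-59858516 at 3167 kb had 6.997 and 6.48 in the test libraries, against 15.7 and 8.28 in the control libraries. Also beyond it, chr2:3184760-3184939 at 3185 kb had 6.87 and 8.28 in the test libraries, against 11.4 and 8.33 in the control libraries.

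The peaks at the very ends of the sequence formed a set of their own. Within 15 kb of an end, a limit set after the values had been seen, narrow peaks were called on 15 ends, and on 10 of these in all 4 libraries (1p, 1q, 4p, 5p, 7p, 10q, 12q, 15q, 18p and 19q). Apart from 2p and both ends of chromosome 17, their nearest starts lay 10002 to 10321 bp from the end. That is where many hg19 chromosome sequences begin after a run of unknown bases. An end whose sequence begins further in than 15 kb could hold no such peak, and these ends were not counted apart. On chromosome 17, whose hg19 sequence has no such run at its ends, a peak started 263 bp from the 17q end. The 2 shared regions closest to an end were chr1:10002-10281 and chr7:10002-10230. Telomeric and adjoining repeats lie at these places, and reads from any end that carries the same repeat can be placed there.

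For narrow peaks, control 2 had the highest fold enrichment at 12 of these 15 outermost places. For broad peaks it was highest at 5 of 10 ends, control 1 at 4 and test 1 at 1. At 7p the narrow fold enrichment was 6.88 and 17.6 in test 1 and test 2, against 10.9 and 29.6 in control 1 and control 2. At 1p it was 20.2 and 23.0 in the test libraries, against 12.8 and 24.1 in the control libraries. At 5p it was 9.63 and 13.1 in the test libraries, against 14.1 and 21.95 in the control libraries. At 19q it was 9.40 and 11.99 in the test libraries, against 8.76 and 21.6 in the control libraries. The 17q peak was not called in test 1 and had 10.9 in test 2, against 13.9 in control 1 and 30.5 in control 2.

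Over the 10 ends with a narrow peak in all 4 libraries, the geometric mean of fold enrichment was 8.54 in test 1 and 13.2 in test 2, against 10.5 in control 1 and 18.01 in control 2. Control 2 was highest at 9 of these 10 ends and test 2 at the other, 10q. Both control libraries exceeded both test libraries at 3 of 10 ends (4p, 5p and 18p), and the reverse held at 0 of 10. Test 2 lay above control 1 in the mean, so the groups overlapped in fold enrichment, which is not scaled between libraries. By percentile within each list, narrow peaks within 15 kb had medians of 68.0 and 93.0 in test 1 and test 2. In control 1 and control 2 the medians were 93.6 and 96.6. Broad medians were 85.8 and 96.0 in the test libraries, against 98.3 and 99.1 in the control libraries. Percentiles depend on list length, and control 1 had the longest lists. This order was not tested. The ends share repeat sequence and are not independent of each other. Over the 7 ends with a broad peak in all 4 libraries the geometric means were 7.34 and 8.12 in test 1 and test 2, against 7.48 and 9.91 in control 1 and control 2. At 12q the broad peak chr12:133841517-133841897 was the strongest of these, with 19.5 and 20.01 in the test libraries, against 20.1 and 19.4 in the control libraries, which differ by little in any direction.

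**Figure D5:**
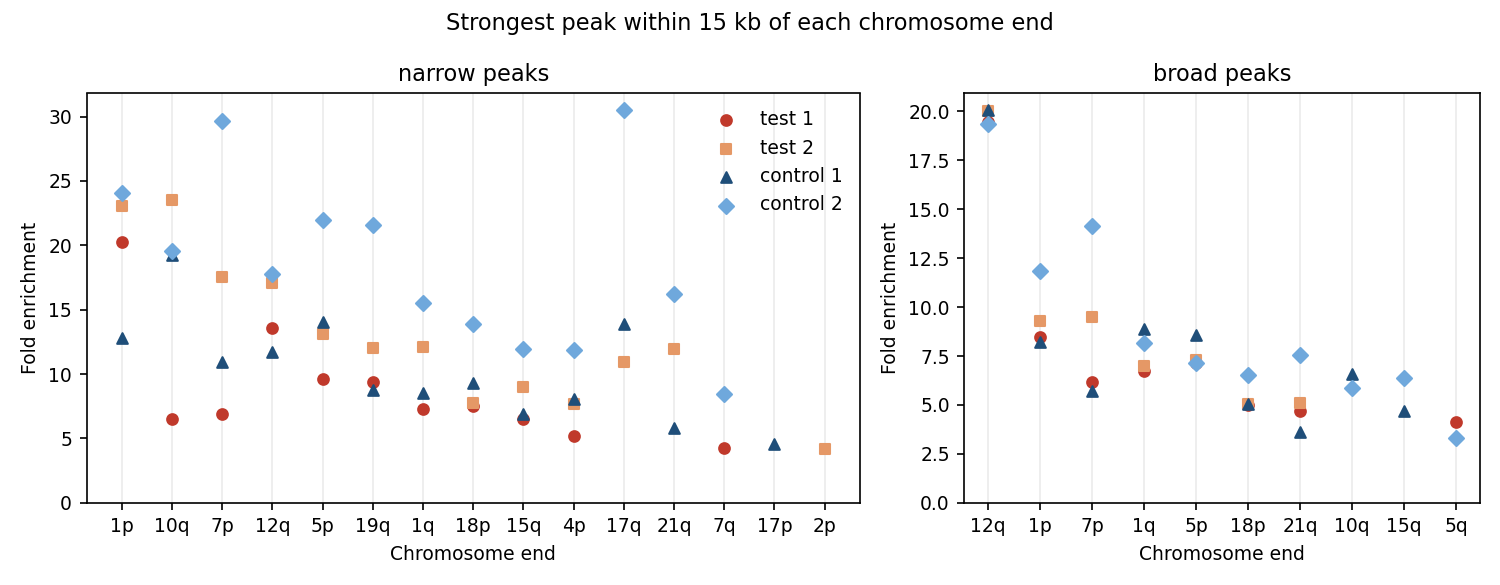
Fold enrichment (vertical axis) of the strongest peak within 15 kb of each chromosome end that had one (horizontal axis), with 1 mark per library, for narrow and broad peaks. Control 2 is highest at 12 of the 15 ends in the narrow panel, and the broad values at 12q lie between 19.4 and 20.1 in all 4 libraries.

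Within the outermost Mb the libraries did not share 1 gradient. In the outer 100 kb narrow peaks stood at 8.46 and 10 per Mb in test 1 and test 2, against 12.8 and 10.8 per Mb in control 1 and control 2. Their median fold enrichment was 7.31 and 9.16 in the test libraries, against 6.13 and 8.37 in the control libraries, above the medians for the whole 3 Mb in each library. They came from 16, 20, 23 and 18 of the 39 ends in test 1, test 2, control 1 and control 2. Control 1, which had the highest narrow density in every 1 Mb step of the outer 3 Mb, thus led the other libraries by less in the outer 100 kb. There its narrow density was below its 15.7 per Mb between 0.1 and 0.25 Mb from the end. All these densities use the full length, with the unknown bases at the ends included. Such bases lower the density in the outer 100 kb, and how much of the fall they account for was not tested. Broad peaks in the outer 100 kb stood at 10.5 and 16.4 per Mb in test 1 and test 2, against 15.1 and 12.3 per Mb in control 1 and control 2. In control 1 that is less than its 17.1 per Mb over the whole 3 Mb, and in control 2 less than its 13.7 per Mb between 0.1 and 0.25 Mb. In both test libraries the outer 100 kb was denser than the stretch from 0.1 to 0.25 Mb in both peak types. In control 2 the same held for narrow peaks, at 10.8 per Mb against 6.67 per Mb, though not for broad ones.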

How the data were processed

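Peak lists of 4 ATAC-seq libraries of OVSAHO cells were used, 1 narrow and 1 broad list each. Per the file headers, the authors ran MACS2 2.2.7.1 on each library by itself, on paired-end fragments with all duplicates kept and no control library, at q 0.05, a genome size of 2.7e+09 and a local background range of 10000 bp. Per the submitters' processing notes, the genome build was hg19 and the tools included cutadapt 3.2, Bowtie2 2.3.5.1, Picard and deepTools 3.5.1. The deposited pileup is the authors' coverage in fragments, at the summit for narrow peaks and as a mean for broad peaks. The deposited fold enrichment is the authors' ratio of pileup to local background, each with 1 added. The added 1 lowers the ratio most where the background is low. The −log10 q is MACS2's, as deposited. None of these values is scaled for depth between libraries, so ends were compared with the rest as ratios within a library. Fold enrichments of single regions and of the outermost peaks are given as deposited. Their order between libraries is not corrected for depth.

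Sample groups came from the labels. Ends were set against the rest by an exact two-sided sign-flip permutation test over 4 libraries, and test against control by exact two-sided permutation of the group names over the 6 possible assignments, each family adjusted by Benjamini-Hochberg over 6 tests. Peaks overlapping by 1 bp were merged into regions. Intervals on shares are exact (Clopper-Pearson, 95%) and cover counting error only; fragments are not all independent molecules. The regions named are the 10 shared narrow regions with the highest lowest-percentile of fold enrichment over the libraries, the leading test-only and control-only regions by the same measure, the 5 ends with the highest and lowest density and background, and the regions nearest an end or the 3 Mb limit; some of these are summarised rather than listed. The ends, lists and tests were chosen with earlier results of these data known. Tested on simulated data, the same steps recovered log2 ratios to within 0.083 and 3000 of 3000 merged regions. The simulated peaks were scattered evenly, and the simulated regions had gaps of 5 bp or more, so touching regions were not tried. Alternatives covered the distance, the q threshold, list length, dense windows, single chromosomes and the flanking 3 Mb. Further ones were windows with a peak only, merging, and leaving out each library. No genome or gene annotation in hg19 was used, so regions are given by position without sequence or gene names. Tests ran in scipy 1.17.1 and figures in matplotlib 3.10.9, under Python 3.11.15 with pandas 2.3.3 and numpy 2.4.6.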

Additional observations from a re-analysis of the deposited data

How the results depend on the processing

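The mean differences between ends and rest kept their sign under every alternative tried, but not in every library. At a −log10 q of 5 or more, broad background was above 0 in 3 of 4 libraries (exact sign-flip permutation p = 0.62) and broad fold enrichment above 0 in 1 of 4 (exact p = 0.5). Against the next 3 Mb inward, narrow fold enrichment was above 0 in 3 of 4 (exact p = 0.25). Over those that keep all 4 libraries, the log2 ratio ran from 1.02 to 1.97 for narrow density, 0.021 to 0.075 for narrow fold enrichment and 0.27 to 0.55 for narrow background. For broad peaks it ran from 0.80 to 1.68 for density, -0.066 to -0.030 for fold enrichment and 0.12 to 0.50 for background. None of these p-values could fall below the threshold with 4 libraries, so no call was at stake.

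Test minus control changed sign in several places, and the cause was not tested. For narrow density it was -0.082 with ends of 5 Mb, -0.17 at a −log10 q of 5 or more, -0.26 with equal list lengths, -0.016 as the median over chromosomes, and -0.029 without 1p and 18p, an alternative chosen after seeing the data. For narrow fold enrichment it was -0.028 with ends of 1 Mb. For narrow background it was 0.0066 with ends of 1 Mb, 0.17 with equal list lengths, 0.027 without dense windows, 0.15 as the median over chromosomes and 0.079 against the next 3 Mb inward. For broad peaks, density was 0.0084 against the next 3 Mb and background 0.48 at a −log10 q of 5 or more. Leaving out each library in turn gave -0.30 to 0.32 for narrow density, -0.0071 to 0.053 for narrow fold enrichment, -0.23 to 0.088 for narrow background, -0.44 to 0.14 for broad density and -0.14 to 0.084 for broad background.

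Counts of regions at ends moved most. With ends of 1 Mb there were 59 shared, 7 test-only and 23 control-only narrow regions and 98, 8 and 20 broad ones, and with ends of 5 Mb 37 broad test-only regions. A −log10 q of 5 or more left 5 test-only and 25 control-only narrow regions, and 50 shared, 9 test-only and 9 control-only broad ones. It kept 2 of the 10 named broad regions in their pattern. Equal list lengths left 30 narrow and 13 broad control-only regions, beside 30 narrow and 27 broad test-only ones, and without dense windows 50 narrow regions were shared. Leaving out each library gave 104 to 155 shared, 32 to 172 test-only and 55 to 1088 control-only narrow regions, and 164 to 404, 57 to 364 and 48 to 1431 broad ones. The highest control-only counts are those without control 2, which leave control 1 alone.

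Libraries of both groups carry the numbers 1 and 2. Across the 39 ends, test 1 minus test 2 in log2 density correlated with control 1 minus control 2 at r = -0.44 for narrow and -0.71 for broad peaks, so the numbers were not taken as pairs. With the replicate block, test minus control stayed at 0.0080 for narrow and -0.15 for broad density, since pairing moves no mean. With 2 pairs p cannot fall below 0.5, so 0 of 6 comparisons were called with the block, and 0 of 6 with the pairs crossed.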
